A study of Mus musculus with 4 samples.

Results

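The mouse zinc finger genes named Zfp500 to Zfp999 were followed across 4 arrays of reprogramming cells. A gene was a member when a probe set with that gene symbol alone carried a symbol from Zfp500 to Zfp999, with or without a letter after the number, and where a gene had several such probe sets the one brightest on average represented it. The rule used the name and the mean level, not a difference between arrays. It gave 216 probe sets for 200 genes, out of 22180 genes with a probe set of their own, and 198 of the 200 are protein-coding in the mouse gene table. That table (assembly GRCm38.p6) holds 220 symbols of this form, and the 20 without a probe set of their own are not described further, except that 12 of them are named on probe sets shared with other genes.

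Each array held total RNA of 1 culture, so no condition was replicated. Both day 6 arrays were bulk cultures of reprogrammable mouse embryonic fibroblasts, cells in which doxycycline switches on the reprogramming factors, sampled 6 days after doxycycline was added. One carried a knockdown of Firefly luciferase, an insect gene absent from mouse cells, and served as the control. The other was labelled as a Sumo2 knockdown. Sumo2 encodes a small protein that is joined to other proteins, and the study asks how lowering it bears on reprogramming. The other arrays held stable induced pluripotent stem cell (iPSC) clones derived from fibroblasts with Sumo2 knockdown, 1 labelled 38 h and 1 labelled 10 day. The labels do not say what those times count or how many clones each array holds. All cultures were Black6-129X1/SvJ, pooled from males and females, and per the labels all had ascorbic acid, doxycycline and embryonic stem cell medium with serum.

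Most proteins of this family carry a row of C2H2 zinc fingers, each a small fold that holds a zinc ion and reads a few bases of DNA. Many also carry a KRAB domain, which binds the corepressor Trim28. Trim28 in turn brings in the histone methyltransferase Setdb1 and HP1 proteins, and in mouse embryonic stem cells and early embryos this machinery is known for silencing retroviral elements and for holding DNA methylation at imprinted genes. The family grew by repeated duplication of whole genes, so that relatives often lie side by side, and a cluster on distal chromosome 4 is known for repressing retroviral elements in embryonic stem cells. Members with a KRAB domain are mixed in this name range with zinc finger proteins of other kinds, such as Zfp503 and Zfp521.

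The promoters of the chromosome 4 neighbours are shown first, because this run had the highest median difference of all runs in iPSC and 7 of its 9 matched promoters are alike. RefSeq promoters (250 bases before to 50 bases after the first listed start, GRCm38.p6) were matched by symbol for 170 of the 200 members. The 4 printed here are Zfp981 at chr4:146514670-146514969 on the plus strand, Zfp600 at chr4:146156577-146156876 on the plus strand, Zfp979 at chr4:147642459-147642758 on the minus strand and Zfp984 at chr4:147809739-147810038 on the minus strand. Zfp981 had the largest rise of all members, Zfp600 and Zfp979 are the most alike pair of the cluster, and Zfp984 has the same kind of promoter but did not rise. Capitals mark the longest run of bases that all 7 alike promoters of the cluster share.
Zfp981: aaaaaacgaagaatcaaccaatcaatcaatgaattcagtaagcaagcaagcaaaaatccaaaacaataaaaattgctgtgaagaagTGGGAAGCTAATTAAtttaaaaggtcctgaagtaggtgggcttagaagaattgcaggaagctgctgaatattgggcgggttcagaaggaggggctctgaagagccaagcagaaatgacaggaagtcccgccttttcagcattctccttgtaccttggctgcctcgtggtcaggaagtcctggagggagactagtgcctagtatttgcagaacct
Zfp600: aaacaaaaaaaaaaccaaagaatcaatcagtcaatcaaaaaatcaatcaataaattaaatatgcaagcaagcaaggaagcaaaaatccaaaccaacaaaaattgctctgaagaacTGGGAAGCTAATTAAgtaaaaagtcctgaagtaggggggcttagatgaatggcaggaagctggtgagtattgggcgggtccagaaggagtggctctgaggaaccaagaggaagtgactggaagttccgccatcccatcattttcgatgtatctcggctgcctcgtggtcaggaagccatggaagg
Zfp979: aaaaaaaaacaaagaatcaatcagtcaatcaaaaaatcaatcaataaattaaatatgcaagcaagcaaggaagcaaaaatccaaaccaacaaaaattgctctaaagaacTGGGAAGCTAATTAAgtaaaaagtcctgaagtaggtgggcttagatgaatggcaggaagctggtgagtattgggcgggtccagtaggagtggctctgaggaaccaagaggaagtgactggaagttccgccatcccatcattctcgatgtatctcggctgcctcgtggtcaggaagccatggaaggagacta
Zfp984: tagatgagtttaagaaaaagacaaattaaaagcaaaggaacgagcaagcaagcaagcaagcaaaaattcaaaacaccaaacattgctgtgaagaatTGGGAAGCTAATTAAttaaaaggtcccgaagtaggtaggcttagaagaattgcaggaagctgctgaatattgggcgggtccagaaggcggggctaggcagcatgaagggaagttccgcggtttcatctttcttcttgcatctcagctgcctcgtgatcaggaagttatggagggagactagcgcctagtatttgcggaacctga
A second group, on chromosome 7, is shown by Zfp936 at chr7:43177340-43177639 on the plus strand and Zfp975 at chr7:42692669-42692968 on the minus strand, which also were higher in iPSC. Capitals here mark the run shared by the promoters of Zfp936, Zfp975 and Zfp976.
Zfp936: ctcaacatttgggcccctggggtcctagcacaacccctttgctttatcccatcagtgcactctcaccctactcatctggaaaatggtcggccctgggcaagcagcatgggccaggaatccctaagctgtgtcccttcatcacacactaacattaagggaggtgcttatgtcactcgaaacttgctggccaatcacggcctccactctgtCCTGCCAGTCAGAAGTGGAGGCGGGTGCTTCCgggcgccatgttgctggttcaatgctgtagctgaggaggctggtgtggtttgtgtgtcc
Zfp975: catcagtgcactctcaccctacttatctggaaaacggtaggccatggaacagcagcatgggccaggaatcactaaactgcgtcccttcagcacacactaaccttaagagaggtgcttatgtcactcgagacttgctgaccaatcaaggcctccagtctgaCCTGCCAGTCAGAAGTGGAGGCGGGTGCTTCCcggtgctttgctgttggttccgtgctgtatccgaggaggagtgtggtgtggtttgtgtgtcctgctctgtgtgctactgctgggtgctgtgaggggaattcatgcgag
For contrast, Zfp784 at chr7:5038397-5038696 on the minus strand comes from a chromosome 7 cluster whose measured genes were all lower in iPSC. Its capitals mark the reverse strand of GGGCGG, the core of a GC box.
Zfp784: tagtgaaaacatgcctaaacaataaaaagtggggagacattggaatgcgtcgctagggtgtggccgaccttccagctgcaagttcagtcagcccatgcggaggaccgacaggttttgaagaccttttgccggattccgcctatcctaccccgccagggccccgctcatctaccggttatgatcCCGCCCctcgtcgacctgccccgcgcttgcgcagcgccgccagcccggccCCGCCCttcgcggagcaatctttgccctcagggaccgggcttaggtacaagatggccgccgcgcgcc

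The 7 alike promoters in the chromosome 4 cluster belong to Zfp980, Zfp600, Zfp981, Zfp985, Zfp979, Zfp534 and Zfp984. Promoters were called alike when the best local alignment covered at least 150 bases with at least 80% identity, a rule chosen after the alignments were seen. All 21 pairs among these 7 passed, with identities from 81.0% to 98.3%, the highest being Zfp600 with Zfp979. Of 14365 pairs among all 170 promoters, 40 passed, so these 21 made up most of them. The 15-base run TGGGAAGCTAATTAA stood in 11 of 27025 promoters of the whole table (0.0407%). The 11 were these 7 and those of Gm13212, Rex2, Zfp987 and Zfp988. The other 2 promoters of the cluster, of Zfp982 and Zfp933, were in no alike pair, and Zfp992 is named only. Searched on both strands, with overlaps between motifs allowed, the letters GGAAGT (ETS core) and CCAAT stood in 7 of the 7 alike promoters and GGGCGG in 6. In the whole table these stood in 24.1%, 37.9% and 35.9% of promoters of the same length, and over all members in 38.8%, 51.8% and 47.6%. TATAAA and the octamer ATGCAAAT stood in 0 of the 7, against 14.2% and 1.75% of the whole table and 2.94% and 0.588% of all members. Because the 7 promoters are so alike, they do not count as 7 separate observations.

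**Figure D1:**
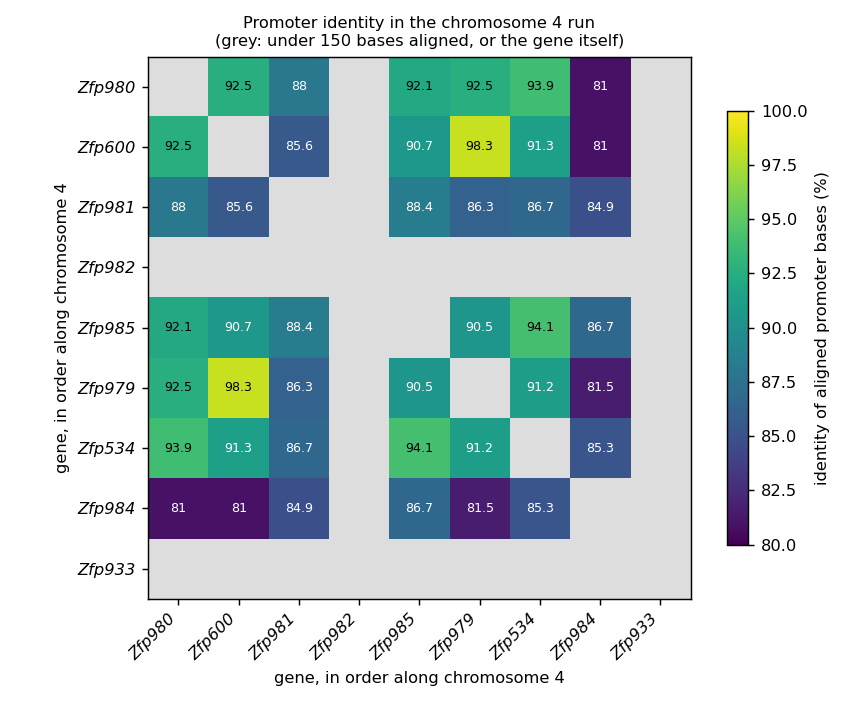
Identity of aligned promoter bases (%, colour and number) between the 9 promoters of the chromosome 4 cluster, in gene order on both axes; grey cells had under 150 aligned bases or are the gene against itself. Zfp600 and Zfp979 were 98.3% alike, and Zfp982 and Zfp933 had no alike partner.

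Of the 200 members, 155 were at or above the measuring floor on at least 1 array, 110 on all 4 arrays, and 45 on none. The floor is each array's median over probe sets with 1 symbol, 6.64 to 6.67 in log2 units. Members were at or above it on all 4 arrays in 55.0% of cases, against 44.8% of all genes. A gene was tested between iPSC and day 6 only when it reached the floor somewhere, so the 155 tested members are not the whole family. The 45 others were not tested, and only some of them are named below. All values below are log2 expression as deposited, compared only within a probe set.

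Between both iPSC arrays and both day 6 arrays, 44 of the 155 measured members rose and 20 fell at a limma adjusted p under 0.05 (Benjamini-Hochberg over 12735 genes), and 91 did not pass. The shares were 28.4% and 12.9%. Over all measured genes 29.0% rose and 17.8% fell, so the share of members that rose lay at the background. With 2-fold asked as well, 26 members rose (16.8%, background 14.3%) and 9 fell (5.81%, background 9.12%). With 2-fold in each of the 4 pairs of an iPSC and a day 6 array, 17 rose (background 8.79%) and 7 fell (4.52%, background 6.3%). Both iPSC arrays lay above both day 6 arrays for 82 members (52.9%, background 46.8%) and below them for 39 (25.2%, background 32.7%). The 162 Zfp genes numbered below 500 had 30.2% of 126 measured genes rising and 10.3% falling.

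The median log2 difference of iPSC minus day 6 over all 200 members was 0.22, against 0.19 for the lower-numbered Zfp genes and -0.06 for all 22180 genes. The members spread more widely, with an SD of 1.05 against 0.79 and 0.8, and ran from -2.79 for Zfp608 to 6.67 for Zfp981. These figures include genes below the floor, which were fewer among members. With measured genes only, the medians lay closer together, at 0.32 for members, 0.25 for lower-numbered Zfp genes and 0.15 for all genes. The SDs were then 1.16, 0.84 and 1.0. There were 15 members (7.5%, background 2.95%) below the floor on both day 6 arrays and at or above it on both iPSC arrays. The opposite held for 7 members (3.5%, background 2.76%). The calls rest on 4 arrays, and the day 6 Firefly array weighs most: without it 24 members rose and 7 fell, and the background fell likewise, to 14.7% and 9.35%. Without the array labelled Sumo2 knockdown 13 fell, with a background of 12.8%. Of the 44 that rose, 22 passed whichever array was left out, and of the 20 that fell, 7 did. Under cyclic loess scaling 38 rose and 24 fell, so that 61.3% of called members had risen in place of 68.8%. The same scaling took that share from 62.0% to 52.4% among all genes.

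The pluripotency markers moved in the same contrast, and so did Thy1, Prrx1 and Col6a1 among the fibroblast markers. The median of 8 pluripotency markers was 6.02 and 7.54 on the Firefly and Sumo2-labelled day 6 arrays, and 11.59 and 11.94 on the 38 h and 10 day iPSC arrays, with 2, 5, 8 and 8 of them at or above the floor. The median of 8 fibroblast markers was 10.29, 9.75, 9.0 and 8.73 in the same order, with 8, 7, 7 and 6 at or above it. Thy1 went from 11.71 and 11.23 to 8.85 and 8.69, while Col1a1 stayed between 10.13 and 10.74 on all arrays. Of 6 primitive endoderm markers 2, 2, 5 and 4 reached the floor, of 5 neural markers 2, 2, 4 and 4, and of 5 markers of the 2-cell stage 0, 0, 2 and 2. Among the endoderm markers Gata6 and Pdgfra rose by 1.32 and 1.5, while Dab2 fell from 11.07 and 10.68 to 9.69 and 8.05. Gata4 and Sox7 did not pass, and Sox17 was below the floor. Among the neural markers Tubb3 and Sox1 rose by 2.96 and 1.39, while Nes fell from 9.06 and 9.42 to 7.75 and 8.21. Map2 did not pass, and Pax6 was below the floor. Blood markers stood at 2 of 5 on every array. Ptprc was at 4.98 to 5.25, and Csf1r and Tyrobp were also below the floor. Laptm5 was at 9.65 to 10.15, and Cd68 rose from 8.69 and 8.72 to 9.47 and 10.02. Endothelial markers stood at 1, 2, 2 and 2 of 4. There Pecam1 rose by 3.38 and Tek fell by 2.44, while Cdh5 did not pass and Kdr was below the floor. The part of these cell types in the members' differences was not tested. In bulk cultures fewer cells of a type and less RNA per cell cannot be told apart. Sumo2 itself was at 10.65 in the Firefly culture and 10.56 in the one labelled Sumo2 knockdown, 93.8% of the control level, so the knockdown was not seen in its transcript.

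The members lay on 20 chromosomes, with 53 on chromosome 7, 27 on chromosome 17, 16 on chromosome 8, 14 on chromosome 13 and 12 on chromosome 4. A run was defined as at least 3 members in a row with at most 10 other protein-coding genes between neighbours. There were 19 runs with 112 members, and 88 members lay outside them. In the run on chromosome 4, 7 of 9 measured members rose at a limma adjusted p under 0.05 and the other 2 did not pass. In all other runs 23 of 81 measured members rose and 7 fell, and outside runs 14 of 65 rose and 13 fell. The shares that rose were 77.8%, 28.4% and 21.5%, beside the background of 29.0%, and 8.64% and 20.0% fell in the other runs and outside runs, beside 17.8%. In the chromosome 4 run Zfp979, Zfp980, Zfp981 and Zfp985 reached the floor only in iPSC, so they were tested only because they were high there. Probe sets of this run may also read near-identical copies together, so its 9 measured genes may not be separate observations. The median difference of the chromosome 4 run was 2.61, against 0.34 in the other runs and 0.06 outside them. Without this run 37 of 146 members rose (25.3%) and 20 fell, both shares below those backgrounds.

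**Figure D2:**
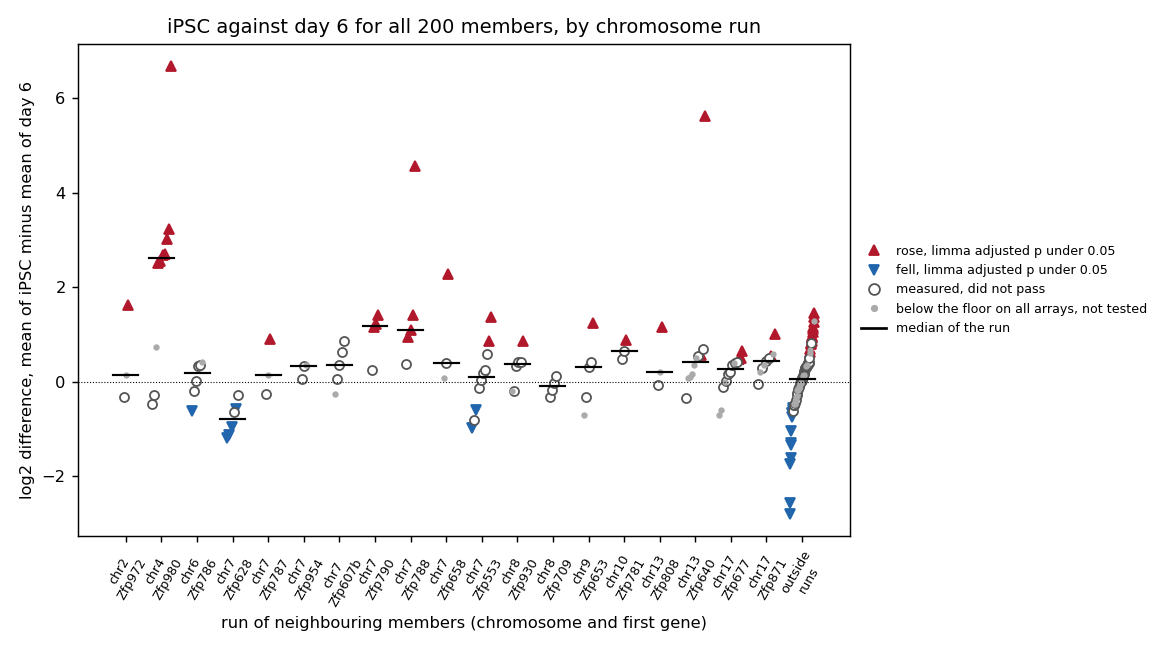
Log2 difference of the mean of both iPSC arrays minus the mean of both day 6 arrays (vertical axis) for all 200 members, grouped by run of neighbouring genes (horizontal axis, named by chromosome and first gene); bars are medians. The chromosome 4 run has its median at 2.61, and the run that starts with Zfp628 on chromosome 7 at -0.8.

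In gene order the chromosome 4 run holds Zfp980, Zfp600, Zfp992, Zfp981, Zfp982, Zfp985, Zfp979, Zfp534, Zfp984 and Zfp933. Zfp981 was at 5.38 and 5.16 on the Firefly and Sumo2-labelled day 6 arrays and at 11.80 and 12.08 on the 38 h and 10 day iPSC arrays. It went from below the floor on both day 6 arrays to far above it on both iPSC arrays, a log2 difference of 6.67 ± 0.18 (SE, limma adjusted p = 5.3e-05), which is at least 38.9-fold counted from the floor. Such a bound takes every value below the floor as equal to it. Zfp980 read 5.39, 5.72, 8.36 and 9.19 in the same order, a difference of 3.22 ± 0.30 (limma adjusted p = 0.000699) and at least 4.34-fold.

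Zfp534 read 5.99, 6.85, 9.43 and 9.46, a difference of 3.02 ± 0.28 (limma adjusted p = 0.000724) and at least 6.49-fold. Here the iPSC arrays were nearly equal and the day 6 cultures were not. Zfp979 read 5.85, 5.47, 8.71 and 7.99 (2.69 ± 0.28, limma adjusted p = 0.00102, at least 3.23-fold). Zfp600 read 6.99, 5.38, 8.57 and 8.88 (2.55 ± 0.49, limma adjusted p = 0.00741, at least 3.72-fold), and its large error comes with the gap between the day 6 cultures. Zfp992 was the member of the run already well above the floor at day 6 that rose: 8.97 and 9.20 became 11.73 and 11.46, a 5.69-fold difference (2.51 ± 0.16, limma adjusted p = 0.00028). Zfp985 rose from 4.39 and 4.37 to 6.55 and 7.57 (2.67 ± 0.38, limma adjusted p = 0.00258), but only the 10 day array reached the floor, so its bound is 1.37-fold. These 7 genes passed whichever array was left out.

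The remaining 3 genes of the run were not called. Zfp982 read 4.91, 5.11, 5.67 and 5.84, so both iPSC values were the higher ones, but all lay below the floor and were not tested. Zfp984 read 9.43, 9.58, 9.22 and 9.21, a difference of -0.29 (limma adjusted p = 0.168). Zfp933, at the end of the run, read 7.76, 8.08, 7.56 and 7.33, a difference of -0.48 (limma adjusted p = 0.0807). Zfp984 and Zfp933 lay slightly lower on the iPSC arrays, and under cyclic loess scaling both passed as lower, at -0.49 (limma adjusted p = 0.0388) and -0.60 (limma adjusted p = 0.0422). Zfp984 is the gene whose promoter is printed above as the alike one: it holds the 15-base run, and it was well above the floor on all 4 arrays. Zfp933 has a promoter unlike the others.

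Probe sets in this run may read near-identical copies together, so which copy rose is uncertain. Zfp979 has 3 probe sets of its own, with differences from 0.07 to 4.46. A probe set shared by Zfp600, Zfp979, Zfp980, Zfp981 and Rex2 read 7.89, 8.12, 12.23 and 12.42. The 4 shared probe sets that name genes of this run had differences from 0.64 to 4.32, with a median of 1.77. All 4 differences were above 0, like those of the 7 genes that rose. Each of the 4 names genes that rose, so they are not a separate check. The probe set shared by Zfp534 and Gm13212 read 4.28, 3.92, 4.57 and 4.91, below the floor on all arrays.

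**Figure D3:**
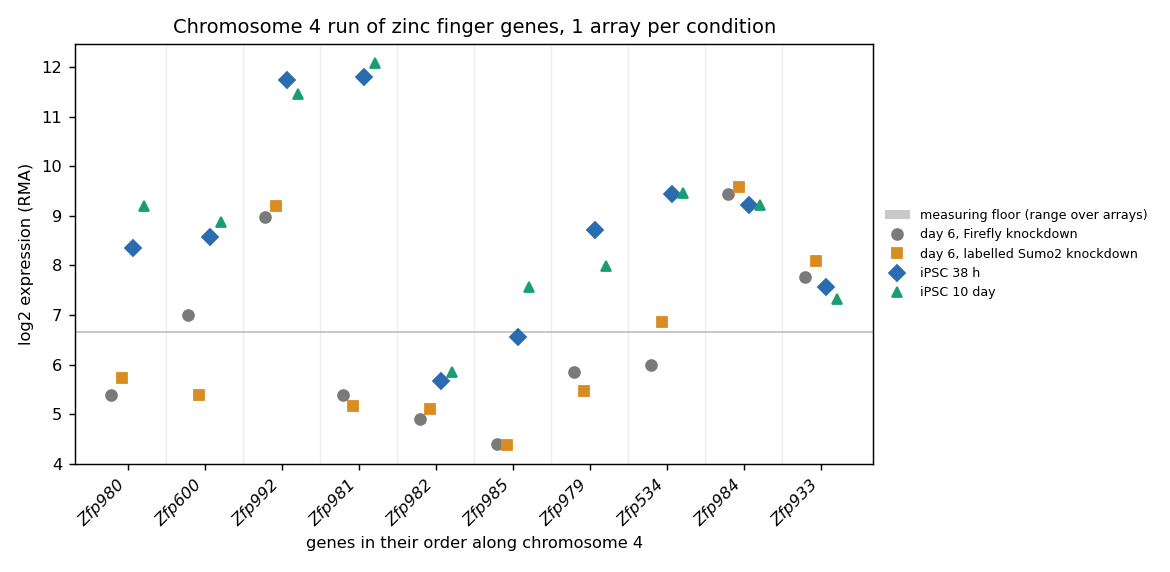
Log2 expression (vertical axis) on the 4 arrays for the 10 genes of the chromosome 4 run in gene order (horizontal axis), 1 point per array; the grey line is the measuring floor. For 8 genes both iPSC points lie above both day 6 points, among them Zfp982, which is below the floor throughout, and Zfp981 at 11.80 and 12.08 against 5.38 and 5.16, whereas Zfp984 and Zfp933 lie slightly lower in iPSC.

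Outside chromosome 4 the largest rise was that of Zfp640 on chromosome 13. It read 4.81 and 5.01 at day 6 and 10.15 and 10.92 in iPSC, a difference of 5.62 ± 0.27 (SE, limma adjusted p = 0.000137) and at least 14.7-fold. Its 3 probe sets gave differences of 5.62 to 6.34, and a probe set shared with Gm10324 read 4.96, 4.79, 10.23 and 10.72. In its run of 10 members 5 were measured, 2 rose and the median difference was 0.42. The other riser there was Zfp729b, at 0.57 (limma adjusted p = 0.0365), and this call was lost whichever array was left out. Zfp729a had 0.69 (limma adjusted p = 0.0673) and Zfp759 -0.34 (limma adjusted p = 0.274).

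Chromosome 7 held 8 runs, which moved in different directions. In the run of Zfp788, Zfp976, Zfp975, Zfp936 and Zfp715, 4 of 5 measured genes rose, with a median of 1.1. Zfp936 read 5.49, 6.40, 10.28 and 10.76, a difference of 4.57 ± 0.33 (limma adjusted p = 0.000339) and at least 14.5-fold. Its relatives changed much less. Zfp975, Zfp976 and Zfp715 were also below the floor on both day 6 arrays, and Zfp788 only on the Firefly array. Zfp975 rose by 1.42 ± 0.40 (limma adjusted p = 0.0283), with the 38 h array at 7.32 and the 10 day array at 8.61, and did not pass without either day 6 array (limma adjusted p = 0.161 and 0.104). Zfp976 rose by 1.10, Zfp715 by 0.94, and Zfp788 had 0.37 (limma adjusted p = 0.144). Zfp976 and Zfp715 did not pass without the Firefly array (limma adjusted p = 0.0764 and 0.0725).

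The promoters of Zfp936, Zfp975 and Zfp976 were 88.4% to 90.8% identical, and the 32-base run printed in capitals stood in 6 promoters of the whole table, the other 3 being EU599041, Gm17768 and Gm38998. The differences in iPSC were 4.57 for Zfp936 and 1.10 for Zfp976. How promoter likeness relates to the differences was not tested, and the pairs from other runs were named after their values were seen. Zfp758 and Zfp943 on chromosome 17 were identical over 292 aligned bases. Zfp758 was below the floor on all arrays, so this pair cannot be compared. Zfp943 read 6.85, 6.56, 6.78 and 6.97, close to the floor, a difference of 0.17 (limma adjusted p = 0.52). Zfp955a and Zfp955b had identical promoters of 300 bases and differences of 0.51 (limma adjusted p = 0.0613) and 0.55 (limma adjusted p = 0.0309). Zfp808 rose by 1.15 (limma adjusted p = 0.0027), whereas Zfp935, with a promoter 89.4% identical, had -0.08 (limma adjusted p = 0.722).

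In the chromosome 7 run of Zfp790, Zfp940, Zfp568 and Zfp566, 3 of 4 measured genes rose and the median was 1.19. Zfp568, which represses a placental transcript of the growth factor gene Igf2 and is needed in early development, read 9.02, 9.65, 10.60 and 10.49, a difference of 1.21 ± 0.23 (limma adjusted p = 0.00717). Zfp566 rose by 1.40 and Zfp940 by 1.16, while Zfp790 had 0.25 (limma adjusted p = 0.278). Zfp940 did not pass without the Firefly array (limma adjusted p = 0.0613). Zfp819, a gene known from pluripotent cells, read 5.94, 5.76, 7.76 and 8.47, a difference of 2.27 ± 0.27 (limma adjusted p = 0.00144) and at least 2.74-fold. In its run of 3, Zfp719 had 0.39 (limma adjusted p = 0.198) and Zfp658 was below the floor.

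Outside the chromosome 4 run 10 risers were 2-fold apart in all array pairs. Besides Zfp640, Zfp936, Zfp566 and Zfp819 these were Zfp972 on chromosome 2, Zfp654 on chromosome 16, Zfp688 on chromosome 7, Zfp518b on chromosome 5, Zfp599 on chromosome 9 and Zfp808 on chromosome 13. Zfp972 read 5.55, 5.55, 7.58 and 6.78, a difference of 1.63 ± 0.30 (limma adjusted p = 0.00645), at least 1.44-fold from the floor. Zfp654 read 7.05, 7.35, 8.80 and 8.52, a difference of 1.46 ± 0.19 (limma adjusted p = 0.00208), with both iPSC arrays above both day 6 arrays. Zfp518b read 7.75, 7.86, 9.03 and 9.10, a difference of 1.26 ± 0.16 (limma adjusted p = 0.00181).

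On chromosome 17 the differences were small. In the run of 14 members that ends with Zfp945, 3 of 10 measured genes rose, Zfp942 by 0.64, Zfp945 by 0.51 and Zfp760 by 0.47, and each of these calls was lost whichever array was left out. In the run of 9 members that starts with Zfp871, 2 of 6 rose, Zfp870 by 1.01 and Zfp955b by 0.55, and the call on Zfp955b was lost likewise. The median differences of these runs were 0.27 and 0.43. The run of 10 that starts with Zfp553 on chromosome 7 was mixed: Zfp688 rose by 1.37 and Zfp646 by 0.85, Zfp768 fell by 0.98 and Zfp771 fell by 0.59, and the median of the run was 0.1. Zfp646 passed only without the 10 day array, and Zfp771 was lost whichever array was left out.

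The remaining runs held few calls. On chromosome 9 Zfp599 rose by 1.25 (limma adjusted p = 0.0045), beside Zfp810 at 0.42 (limma adjusted p = 0.122). On chromosome 10 Zfp873 rose by 0.88 (limma adjusted p = 0.0135), and its neighbours Zfp938 and Zfp781 had 0.65 (limma adjusted p = 0.0879) and 0.47 (limma adjusted p = 0.0653). All 3 genes of that run thus had higher means in iPSC. On chromosome 8 Zfp868 rose by 0.86 (limma adjusted p = 0.0164), while in the other chromosome 8 run the 4 genes ran from -0.33 for Zfp961 to 0.12 for Zfp882 and none passed. On chromosome 6 Zfp783 fell by 0.63 (limma adjusted p = 0.0488), beside Zfp956 at 0.36 (limma adjusted p = 0.141). Zfp873 and Zfp868 did not pass without the Firefly array (limma adjusted p = 0.0831 and 0.102), and Zfp783 passed only without the 10 day array.

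On chromosome 7 Zfp667 rose by 0.90 (limma adjusted p = 0.014), beside Zfp787 at -0.26 (limma adjusted p = 0.218), and did not pass without either day 6 array (limma adjusted p = 0.057 and 0.0812). Both runs there with no call had medians above 0, 0.33 for Zfp954, Zfp773 and Zfp772 and 0.36 for the run that ends with Zfp850. Zfp850 itself had 0.87 (limma adjusted p = 0.0708) and Zfp974 0.62 (limma adjusted p = 0.0673), so the highest values of that run missed the threshold. The other tested genes among the highest or lowest differences of their runs also did not pass. They were Zfp931 on chromosome 2 (-0.32), Zfp746 on chromosome 6 (-0.19), Zfp780b and Zfp629 on chromosome 7 (0.06 and -0.81), Zfp963 and Zfp869 on chromosome 8 (-0.19 and 0.42), Zfp709 and Zfp617 on chromosome 8 (-0.17 and -0.02) and Zfp763 on chromosome 17 (-0.04). Of these Zfp629 lay nearest to the threshold, with a limma adjusted p of 0.0504.

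**Figure D4:**
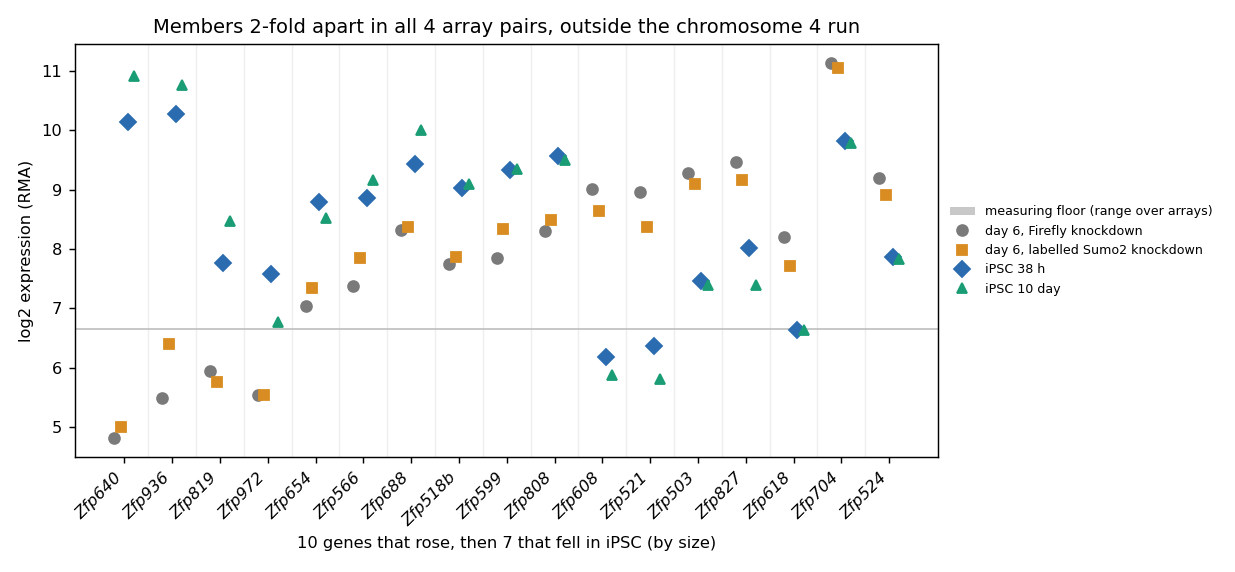
Log2 expression (vertical axis) on the 4 arrays for the 17 members outside the chromosome 4 run that were called by limma and were 2-fold apart in all 4 pairs of arrays, 10 risers then 7 fallers (horizontal axis); the grey line is the measuring floor. Zfp640 and Zfp936 lie above 10 on both iPSC arrays, and Zfp608 and Zfp521 drop below the floor there.

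The members that fell were mostly single genes: 13 of the 20 lay outside runs. Zfp608 fell most, from 9.01 and 8.65 to 6.19 and 5.88, a difference of -2.79 ± 0.21 (SE, limma adjusted p = 0.00039) and at least 4.49-fold. Zfp521, a regulator of progenitor cells in mesenchyme, blood and brain, fell from 8.96 and 8.38 to 6.37 and 5.82 (-2.57 ± 0.28, limma adjusted p = 0.00107, at least 4.02-fold). For both genes the iPSC arrays were below the floor. Zfp503, a developmental repressor studied in the striatum, fell from 9.28 and 9.09 to 7.47 and 7.40, which is 3.37-fold (-1.75 ± 0.16, limma adjusted p = 0.000709). Zfp827, which brings a chromatin remodelling complex to telomeres, fell from 9.47 and 9.17 to 8.02 and 7.39, which is 3.07-fold (-1.62 ± 0.25, limma adjusted p = 0.00358).

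Zfp618 fell from 8.21 and 7.72 to 6.64 and 6.63, just below the floor (-1.34 ± 0.21, limma adjusted p = 0.0039, at least 2.47-fold). Zfp704 stayed bright while it fell, from 11.14 and 11.06 to 9.82 and 9.79, which is 2.46-fold (-1.30 ± 0.13, limma adjusted p = 0.000876). On chromosome 18 3 of 4 measured members fell: Zfp608, Zfp521 and Zfp516, a regulator of brown fat genes. Zfp516 fell by 0.67 (limma adjusted p = 0.0149) and did not pass without the Firefly array (limma adjusted p = 0.0815) or the array labelled Sumo2 knockdown (limma adjusted p = 0.0511).

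The run at the start of the chromosome 7 list, Zfp628, Zfp579, Zfp524, Zfp865, Zfp784 and Zfp580, had all 6 members measured and all 6 lower in iPSC on average. Its median difference was -0.8, with 4 falling at a limma adjusted p under 0.05 and the other 2 not passing. Zfp524 fell from 9.20 and 8.91 to 7.87 and 7.84, which is 2.30-fold (-1.20 ± 0.17, limma adjusted p = 0.00284). Zfp579 fell by 1.12, Zfp628 by 0.95 and Zfp865 by 0.58. Zfp784 had -0.65 (limma adjusted p = 0.052) and Zfp580 -0.29 (limma adjusted p = 0.243). Without the Firefly array Zfp579, Zfp628 and Zfp865 did not pass (limma adjusted p = 0.0656, 0.057 and 0.15), and Zfp865 passed only without the 38 h array.

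Promoters of members that fell held more CpG at the median than those of members that rose. CpG is the dinucleotide at which mouse DNA is methylated. The median CpG count in the 300 bases was 23.5 for 14 fallers, 10 for 37 risers, 16 for 78 measured members that did not pass and 10 for 41 members that were not measured. Over all 170 promoters the median was 13, and over the 27025 promoters of the whole table it was 7. The ranges overlapped widely, from 3 to 54 among risers and from 10 to 59 among fallers. The 9 promoters of the chromosome 4 run had a median of 5, and the 7 alike ones had 3 to 9 CpG. These copies lower the median of the risers. Members outside this run that rose at least 2-fold had a median of 14 over 15 promoters. Members that fell at least 2-fold had 22 over 5. The 4 matched promoters of the falling chromosome 7 run had a median of 21.5, with 27 in Zfp784. These counts describe sequence and were not tested against expression.

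**Figure D5:**
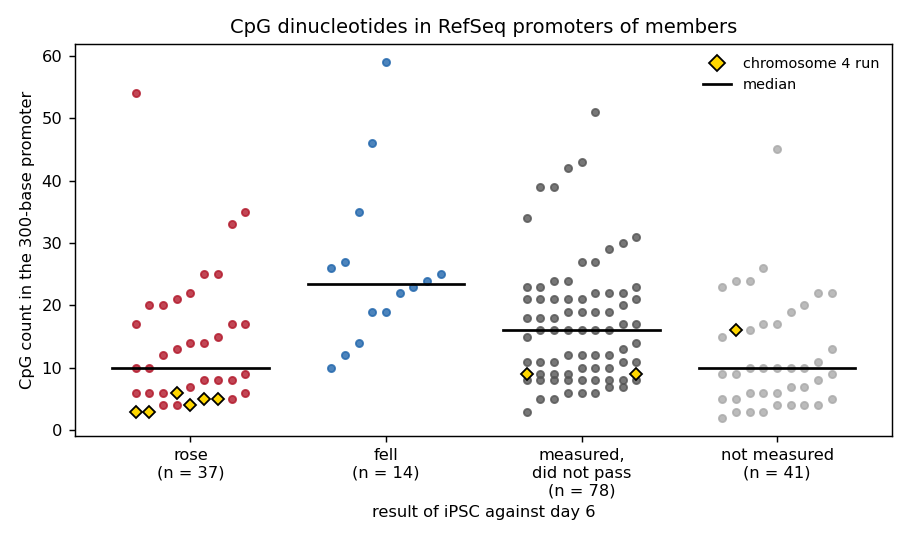
CpG dinucleotides in the 300-base RefSeq promoter (vertical axis, count) of each matched member, grouped by its result between iPSC and day 6 (horizontal axis); bars are medians and diamonds are the chromosome 4 run. Fallers have a median of 23.5 and risers of 10, and the risers of the chromosome 4 run lie at the low end.

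A list of 24 members with a known role was described whatever their values, and 23 had a probe set of their own. Of 18 measured, 4 rose (Zfp568, Zfp600, Zfp622 and Zfp819) and 5 fell (Zfp503, Zfp516, Zfp521, Zfp608 and Zfp827), beside the backgrounds of 29.0% and 17.8%. Zfp622, a factor in maturation of the large ribosomal subunit, went from 8.56 and 8.81 to 9.78 and 9.91 (1.16 ± 0.17, limma adjusted p = 0.00313). Zfp598, the ubiquitin ligase that senses collided ribosomes, read 9.88, 9.90, 9.90 and 9.87, a spread smaller than the SE of its difference, 0.14. Zfp809, which recognises the primer binding site of murine leukaemia virus in embryonic cells, read 9.13, 9.39, 8.93 and 8.94, a difference of -0.33 (limma adjusted p = 0.158) that passed as -0.52 under cyclic loess (limma adjusted p = 0.0397). Zfp706, a brake on stem cell self-renewal, read 11.88, 12.04, 12.16 and 12.23 (limma adjusted p = 0.0826), and its dimmer probe set had -0.81.

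Zfp638, which takes part in silencing of unintegrated retroviral DNA, had 0.40 (limma adjusted p = 0.118). Zfp592 and Zfp687, partners in a Zmynd8 complex, had 0.19 (limma adjusted p = 0.457) and 0.40 (limma adjusted p = 0.0611). Zfp609, a partner of the cohesin loader in cortical neurons, had -0.15 (limma adjusted p = 0.502), and Zfp703 had -0.49 (limma adjusted p = 0.101). Zfp536, Zfp541, Zfp708, Zfp711 and Zfp932 were below the floor on every array. Zfp932, a repressor of retroviral elements in embryonic stem cells, read 5.28, 5.24, 6.47 and 6.63, so both iPSC values were the higher ones but too dim to test.

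The day 6 cultures differed little in these genes. The median of the culture labelled Sumo2 knockdown minus Firefly was 0.02 over all members, with an SD of 0.32, against 0.0 and 0.3 for all genes. Of 132 measured members 0 were 2-fold up in the Sumo2-labelled culture (background 0.945%) and 1 was 2-fold lower (background 0.23%). With 1 array a side there is no test of these sizes and no replicate check. The 1 gene was Zfp600, at 6.99 in the Firefly culture and 5.38 in the other. Counted from the floor it was 1.24-fold lower at least, so the gap lies mostly below the floor, and it ran against the rise of Zfp600 in iPSC.

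At 1.5-fold, 5 members were up in the Sumo2-labelled culture (3.79%, background 4.09%) and 4 lower (3.03%, background 2.81%). The higher ones were Zfp534 (0.85), Zfp553 (0.84), Zfp568 (0.64), Zfp750 (0.94) and Zfp961 (0.66). The lower ones were Zfp521 (-0.59), Zfp579 (-0.66), Zfp600 (-1.61) and Zfp944 (-0.78). In the same pair the pluripotency marker Nanog went from 7.54 to 9.87 and Thy1 from 11.71 to 11.23. For the chromosome 4 run as a whole the day 6 median was 0.18, from -1.61 to 0.85. For the falling chromosome 7 run it was -0.25, with all 6 genes between -0.66 and -0.05.

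Between the iPSC arrays, 2 of 147 measured members were 2-fold higher in the 38 h than in the 10 day array (1.36%, background 1.03%) and 4 were lower (2.72%, background 2.19%). Zfp772 read 7.37 in 38 h and 5.89 in 10 day, and Zfp946 read 6.83 and 5.82. For both the lower value was below the floor, and a probe set that Zfp772 shares with another gene read 6.31 and 7.34, the opposite order. Zfp951 read 5.11 and 6.88, with the 38 h array below the floor. Zfp975 read 7.32 and 8.61, and Zfp985 read 6.55 and 7.57, the latter again across the floor.

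Zfp750, an activator of epidermal differentiation, was at 7.32 in 38 h and 8.50 in 10 day, and at 7.32 and 8.26 on the Firefly and Sumo2-labelled day 6 arrays. It was thus above the floor throughout and differed within each pair, while its iPSC and day 6 means were 0.12 apart (limma adjusted p = 0.835). At 1.5-fold, 13 members were higher in 38 h (8.84%, background 4.11%) and 8 lower (5.44%, background 6.44%). Among the higher ones Zfp605, Zfp629, Zfp712, Zfp772, Zfp853 and Zfp946 were below the floor on the 10 day array. Counted from the floor, Zfp772 was 1.62-fold higher and the others of these 1.03-fold to 1.24-fold. Among the lower ones Zfp938, Zfp951 and Zfp985 were below the floor in 38 h, and from the floor they were 1.37-fold, 1.17-fold and 1.88-fold lower. Within the chromosome 4 run the iPSC arrays differed by -1.02 to 0.72, with a median of -0.1. Zfp980 and Zfp985 were lower and Zfp979 higher in 38 h by over 1.5-fold, with 1 array a side. The 38 h value of Zfp985 was below the floor. Another probe set of Zfp979, with a larger rise in iPSC, read 8.81 in 38 h and 8.63 in 10 day.

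The partner list holds the corepressors and heterochromatin proteins that act with KRAB zinc finger proteins. Of 29 listed genes 24 had a probe set of their own, all measured, and 14 rose and 1 fell between day 6 and iPSC at a limma adjusted p under 0.05, beside the backgrounds of 29.0% and 17.8%. The median difference was 0.63, and 6 rose at least 2-fold. Trim28 read 10.88 and 11.26 at day 6 and 12.10 and 11.96 in iPSC, a difference of 0.96 ± 0.15 (limma adjusted p = 0.00332). Setdb1 rose by 0.60 (limma adjusted p = 0.0229). Among the HP1 genes Cbx1 rose by 1.28 and Cbx5 by 0.91, while Cbx3 had -0.11 (limma adjusted p = 0.444).

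The de novo DNA methyltransferase Dnmt3b rose most, from 6.93 and 7.86 to 9.84 and 9.29 (2.17 ± 0.34, limma adjusted p = 0.00371). Tasor, a subunit of the HUSH silencing complex, rose by 1.55, and another HUSH subunit, Pphln1, fell by 0.60 (limma adjusted p = 0.0243). The chromatin factors Morc3 and Smarcad1 both rose by 1.13, and Uhrf1, which guides maintenance of DNA methylation, by 1.15. Sumo2 rose by 0.63 (limma adjusted p = 0.0151) and Sumo3 had 0.06 (limma adjusted p = 0.813). Between the day 6 cultures the list had a median of 0.33, from -0.09 to 0.93, and 0 of 24 reached 2-fold. Without the Firefly array 8 of the 24 rose, and Pphln1 did not pass whichever array was left out.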

How the data were processed

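Total RNA from 4 mouse cultures was measured on 1 Affymetrix array each. The deposited values are log2 expression per probe set, which the authors computed by RMA in the software Expression Console of Affymetrix, as named in the submitters' processing notes. Versions, the array's genome build and the log base are not given in the sources used here, and base 2 was taken, as RMA gives log2. The values ran from 2.98 to 13.7. RMA sets the arrays to like distributions, so a change of total RNA cannot be seen, and it pulls dim differences towards 0. Arrays give no counting depth, and the small number of arrays limits the precision.

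Of 41345 probe sets 23521 carry 1 gene symbol, 1814 several and 16010 none listed. Pairs of single arrays were compared by a size of 2-fold with no p-value. Both iPSC against both day 6 arrays were fitted with limma 3.58.1 in R 4.3.3 (lmFit, then eBayes with its trend option; 2 residual degrees of freedom) on the 12735 genes at or above the floor on at least 1 array, with Benjamini-Hochberg adjustment. The error of each pair includes the knockdown and the difference between iPSC lines, and nothing says how separate the cultures were, so p-values measure only the spread among these 4 arrays. In simulated data of 12735 genes the fit recovered 63% of 100 genes changed 4-fold and 4% of 100 changed 2-fold, with 1 false call. No other genes were changed in that simulation, whereas 3694 rose and 2264 fell in the real fit. These rates therefore do not carry over to the calls made here.

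The members and lists were chosen with earlier results of these data known. Named were the members 2-fold apart between single arrays, up to 12 each way called by limma and 2-fold apart in all 4 array pairs, the 2 highest and 2 lowest of each run where they were tested, the known-role list (which includes Zfp644, without a probe set of its own) and the partner list. Members that make up small counts, and other pairs with alike promoters, were named after their values were seen. Gene order came from the GRCm38.p6 gene table, and promoters were aligned with Biopython 1.88. Alternatives were the probe set, floor, scaling, trend, fold, run rule and each array left out; leaving out the chromosome 4 run was added after seeing the data.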

Additional observations from a re-analysis of the deposited data

How the results depend on the processing

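The counts of risers and fallers kept within 1.5 times of 44 and 20 with the median over probe sets, a lower-quartile floor, no floor, cyclic loess and no intensity trend. Leaving out 1 array gave 24 to 46 risers and 7 to 16 fallers. Asking 2-fold as well gave 26 and 9, by construction. Among the partner genes leaving out 1 array gave 8 to 12 risers and 0 fallers, and cyclic loess gave 2 fallers. Under cyclic loess 19.5% of the lower-numbered Zfp genes rose in place of 30.2%, and 2 genes of the chromosome 4 run fell in place of 0. Over all genes the same scaling gave 2971 risers and 2699 fallers in place of 3694 and 2264. The cause was not tested. Between the day 6 cultures 1.5-fold gave 5 higher and 4 lower, a lower-quartile floor or no floor gave 2 lower, and counting from the floor gave 0 lower. Between the iPSC lines 1.5-fold gave 13 higher and 8 lower, cyclic loess gave 1 higher, and counting from the floor gave 0 higher and 2 lower. Among named members that did not pass, the sign turned for Zfp592 (-0.00 with cyclic loess, -0.04 to 0.42 with 1 array left out), Zfp598 (up to 0.01 with 1 array left out), Zfp609 (-0.30 to 0.01 likewise), Zfp706 (-0.29 with the median over probe sets) and Zfp750 (-0.02 with cyclic loess, -0.47 to 0.71 with 1 array left out). At most 5 or at most 20 genes between neighbours gave 20 or 17 runs in place of 19. No paired analysis was possible because each group has 1 array and the labels carry no replicate numbers. Signal near the floor limits the dim members: 45 of 200 had no test.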
